A study of Homo sapiens with 12 samples.

Results

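The EPH receptors, the largest family of receptor tyrosine kinases, and their membrane-bound ligands, the ephrins, were described in 2 human cancer cell lines treated with selpercatinib, a drug that blocks the kinase RET. The 10 genes were 7 receptors (EPHA1, EPHA2, EPHA4, EPHB2, EPHB3, EPHB4 and EPHB6) and 3 ligands (EFNA1, EFNB1 and EFNB2). They were found by matching the Ensembl identifiers of the deposited tables to these symbols, and all 10 were present among the 37247 genes of each table. RNA-seq was available for 4 groups of 3 libraries each. These were TPC-1 cells, a line from a papillary thyroid cancer, after 48 h in 100 nM selpercatinib, untreated TPC-1 parent cells, LC-2/ad cells, a line from a lung cancer, after 48 h in 100 nM selpercatinib, and untreated LC-2/ad parent cells. Both lines are known to carry a RET gene fusion, and each stands for its tumour type as a single cultured line. TPC-1 was grown in RPMI-1640 and LC-2/ad in an equal mixture of RPMI-1640 and F-12, both with fetal bovine serum. The labels give the treatment of the parent cells as none and do not mention the drug's solvent.

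EPH receptors and ephrins signal at contacts between cells. A-type ephrins are held in the membrane by a lipid anchor and mostly bind A-type receptors, whereas B-type ephrins span the membrane and mostly bind B-type receptors, with some crossing between the classes. Binding clusters the receptor and starts kinase signalling in its own cell, and the ephrin can signal back into the cell that carries it, with outcomes such as repulsion, boundary formation and changes of adhesion. In epithelial tumours EPHA2 is the best studied member: bound by EFNA1 it is known to be internalised and to dampen growth factor signalling, while unbound and phosphorylated on a serine it is known to favour migration.

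The values were transcript abundances scaled to a fixed total in each library (TPM), in 1 table per line; levels set side by side across the lines were not scaled together and were not tested against each other. TPM keep no depth, and the depth of the libraries is unknown. Whether the 3 libraries of a group are separate cultures is not stated, so p-values reflect the spread between these libraries only, and that spread may be technical. In bulk RNA, fewer cells with a transcript and less of it per cell cannot be told apart. Mitochondrial transcripts took 5.83% to 6.82% of the TPM in treated TPC-1 libraries and 6.41% to 7.56% in parent TPC-1 libraries, against 14.01% to 14.95% in treated and 9.72% to 9.82% in parent LC-2/ad libraries. The thyroid factors PAX8 and FOXE1 were present in both lines. PAX8 averaged 271 TPM in treated and 190.0 TPM in parent TPC-1 cells and 21.9 TPM in treated and 14.8 TPM in parent LC-2/ad cells, and FOXE1 averaged 9.27 TPM in treated and 9.11 TPM in parent TPC-1 cells and 36.2 TPM in treated and 11.6 TPM in parent LC-2/ad cells. Other thyroid markers were low in TPC-1: thyroglobulin (TG) and the thyrotropin receptor (TSHR) averaged under 1 TPM in both TPC-1 groups. NKX2-1, counted here among the lung markers, was listed at 0 in every TPC-1 library. The epithelial cadherin CDH1 was also under 1 TPM on average in TPC-1. In LC-2/ad all 5 epithelial markers and the lung markers NKX2-1 and NAPSA were present, SFTPB and SCGB1A1 averaged under 1 TPM and SFTPC was listed at 0 in every library.

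Within each line, treated and parent libraries were compared with limma on log2(TPM + 1) across all genes with a mean of at least 1 TPM, and a gene was called at a Benjamini-Hochberg adjusted p under 0.05. Fold changes are treated minus parent on this log2 scale, which understates the change of low genes, and are given with their SE. In TPC-1, 8 of the 10 genes were tested, and 2 were higher in treated cells (EFNA1 and EFNB1) and 0 lower, where 4.96% of all 12825 tested genes were called, 3.75% as higher and 1.21% as lower. In LC-2/ad all 10 were tested, and 1 was higher (EFNA1) and 2 lower (EPHA2 and EPHB3), where 55.0% of all 14118 tested genes were called, 30.6% as higher and 24.4% as lower. The median log2 fold change of the tested members was 0.32 in TPC-1, against 0.05 over all tested genes. In LC-2/ad it was -0.06, against 0.07 over all tested genes. Over the other tested genes of the family it was 0.04 in TPC-1 (7 genes) and -0.0036 in LC-2/ad (6 genes). The members were chosen with earlier results of these data known, so their medians and counts do not stand for the whole family. The change of 5 of the 8 members tested in both lines was called as higher in TPC-1 than in LC-2/ad (EPHA2, EPHA4, EPHB4, EFNB1 and EFNB2), and 0 as lower, where 36.6% of 11996 genes were called in either direction and 22.2% as higher in TPC-1.

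**Figure D1:**
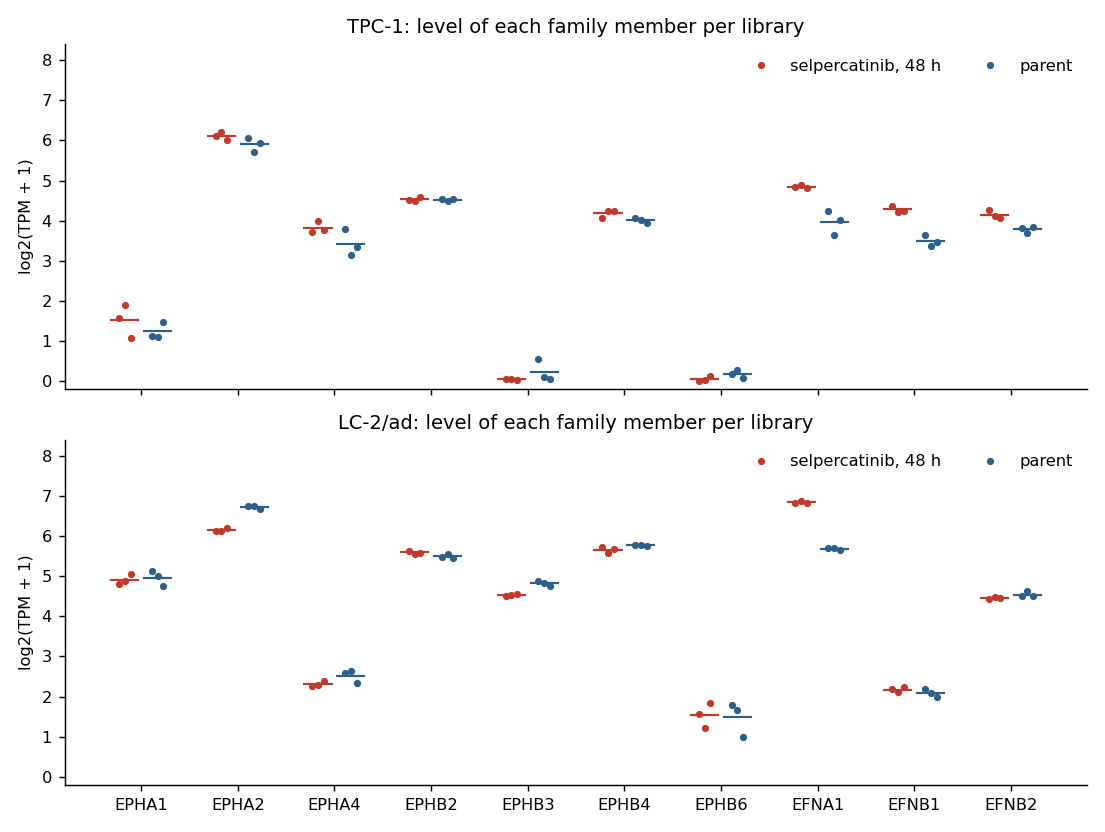
Level of each member as log2(TPM + 1) in TPC-1 (top) and LC-2/ad (bottom). Points are the 3 libraries of a group, bars their mean, red after selpercatinib and blue in parent cells. In TPC-1 EFNA1, EFNB1, EFNB2 and EPHB4 lie above their parent libraries. In LC-2/ad EFNA1 and EPHB2 lie above theirs, and EPHA2, EPHB3, EPHB4 and EFNB2 below. EPHB2, EPHB4 and EFNB2 were not called in either line. The share of all tested genes whose groups separate in this way is not given, so the separation is a description.

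EPHA2 was the most abundant receptor of the family in all 4 groups, and its change differed between the lines. It lies on the minus strand of chromosome 1 (GRCh38, 16124337 to 16156087). In TPC-1, EPHA2 stood at 68.0, 73.2 and 63.9 TPM in treated libraries and at 65.6, 51.6 and 60.5 TPM in parent libraries. Treated LC-2/ad libraries had 68.8, 69.3 and 72.0 TPM, against 107, 106 and 102 TPM in parent LC-2/ad libraries. The TPC-1 groups overlapped, while every treated LC-2/ad library was below every parent one. In TPC-1 the log2 fold change was 0.21 ± 0.09 with a 95% interval of -0.0034 to 0.42 (adjusted p = 0.241). In LC-2/ad EPHA2 fell by 0.57 ± 0.04 on the log2 scale, to 0.671 times the parent level (adjusted p = 2.0e-05). The difference between these changes, TPC-1 minus LC-2/ad, was 0.78 ± 0.11 (adjusted p = 0.000116), and it was called under all 21 alternative settings tried.

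The bases upstream of EPHA2 are shown because it is the receptor with the largest difference between the lines. They are from RefSeq (GRCh38.p14), chr1:16156088-16156319, minus strand, and run from base 250 to base 19 before the RefSeq start. Capitals mark matches to any of 7 searched motifs.
EPHA2: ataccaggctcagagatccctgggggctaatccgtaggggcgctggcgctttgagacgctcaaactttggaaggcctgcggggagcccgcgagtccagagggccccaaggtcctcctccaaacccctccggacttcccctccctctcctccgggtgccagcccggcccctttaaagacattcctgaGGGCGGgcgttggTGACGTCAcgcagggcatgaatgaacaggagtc
The motifs, read on both strands of the 250 bases before each start, were the cyclic AMP response element TGACGTCA, the AP-1 site TGANTCA, the ETS core CCGGAA, the CCAAT box CCAAT, the GC box GGGCGG, the TATA box TATAAA and the E-box CACGTG. Windows of all 10 members were matched by symbol. EPHA2 held a cyclic AMP response element at bases 51 to 44 before the start, next to a GC box at bases 64 to 59. EPHA2 was the 1 member with that element, which occurred in 1.63% of all 34943 windows. A GC box occurred in 42.5% of them. A match describes letters and does not show that a factor binds there.

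The 2 other A-type receptors were lower than EPHA2, and neither was called in a single line. EPHA1, the first member of the family to be isolated, stood at 2.00, 2.74 and 1.13 TPM in treated TPC-1 libraries and at 1.19, 1.16 and 1.80 TPM in parent TPC-1 libraries. Its LC-2/ad values were 26.7, 28.3 and 32.4 TPM in treated libraries and 33.7, 31.1 and 26.0 TPM in parent libraries. The groups overlapped in both lines. EPHA1 had a log2 fold change of 0.28 in TPC-1 (95% interval -0.26 to 0.83, adjusted p = 0.546) and -0.05 in LC-2/ad (-0.30 to 0.20, adjusted p = 0.732), with the LC-2/ad sign turning when mitochondrial genes were removed. EPHA1 overlaps ZYX on the opposite strand, and the use of strand in counting is not given in the sources used here.

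EPHA4, a receptor that binds ephrins of both classes, lay between 7.83 and 14.8 TPM in TPC-1 and between 3.82 and 5.18 TPM in LC-2/ad. In TPC-1 it stood at 12.2, 14.8 and 12.6 TPM in treated libraries and at 12.7, 7.83 and 9.24 TPM in parent libraries. The LC-2/ad values were 3.82, 3.88 and 4.203 TPM in treated libraries and 4.999, 5.18 and 4.03 TPM in parent libraries. In each line 1 parent library lay within the treated range. The log2 fold change was 0.40 ± 0.16 in TPC-1 (95% interval 0.03 to 0.77, adjusted p = 0.200) and -0.20 ± 0.12 in LC-2/ad (-0.48 to 0.08, adjusted p = 0.188). The difference of 0.60 ± 0.21 was called (adjusted p = 0.0418), but under 8 of 20 alternatives and in 3 of the 12 fits that left out 1 library. Without the first TPC-1 parent library, the one inside the treated range, the TPC-1 change itself had an adjusted p of 0.0419.

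Among the B-type receptors, EPHB3 alone was called in a line. EPHB2, EPHB3 and EPHB4 are active kinases, and EPHB4 is best known as the receptor of EFNB2 in blood vessels. EPHB3 stood at 21.6, 22.0 and 22.7 TPM after treatment of LC-2/ad, against 28.3, 27.5 and 25.9 TPM in parent LC-2/ad libraries. All treated libraries lay below all parent ones. EPHB3 had a log2 fold change of -0.29 ± 0.06, or 0.819 times the parent level (adjusted p = 0.00437), and the call was lost when both lines shared 1 estimate of the spread (adjusted p = 0.0681). In TPC-1 EPHB3 was near absent, at 0.0154 to 0.0446 TPM in treated libraries and 0.0334 to 0.462 TPM in parent libraries, and was not tested.

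EPHB2 was nearly level in TPC-1, at 22.0, 21.6 and 23.0 TPM in treated libraries and 22.2, 21.6 and 22.1 TPM in parent libraries. LC-2/ad had 48.4, 46.2 and 47.1 TPM in treated libraries, against 43.5, 45.5 and 42.9 TPM in parent libraries. The TPC-1 groups overlapped, while the treated LC-2/ad libraries all lay above the parent ones by a small margin. EPHB2 had a log2 fold change of 0.01 in TPC-1 (95% interval -0.15 to 0.18, adjusted p = 0.948), where the sign turned under median-of-ratios scaling, and 0.10 in LC-2/ad (-0.01 to 0.21, adjusted p = 0.110). With mitochondrial genes removed, the LC-2/ad change was 0.18 and was called (adjusted p = 0.0158).

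EPHB4 stood at 15.9, 17.9 and 18.0 TPM in treated TPC-1 libraries and at 15.7, 15.3 and 14.3 TPM in parent TPC-1 libraries. Values in LC-2/ad were 52.2, 47.0 and 49.97 TPM in treated libraries, against 54.0, 53.8 and 52.8 TPM in parent libraries. The groups did not overlap in either line, and the treated libraries lay above the parent ones in TPC-1 and below them in LC-2/ad. The log2 fold change was 0.18 ± 0.09 in TPC-1 (95% interval -0.02 to 0.38, adjusted p = 0.288) and -0.11 ± 0.05 in LC-2/ad (-0.23 to 0.01, adjusted p = 0.119). The difference between the lines, 0.29 ± 0.09, was called (adjusted p = 0.0310), though under 11 of 21 alternatives and in 4 of the 12 fits without 1 library. With mitochondrial genes removed it was 0.20 (adjusted p = 0.119). Median-of-ratios scaling gave -0.20 in LC-2/ad, which was called (adjusted p = 0.0159). EPHB4 overlaps SLC12A9 on the opposite strand, whose mean was 9.15 TPM in treated and 7.39 TPM in parent TPC-1 cells and 50.8 TPM in treated and 41.1 TPM in parent LC-2/ad cells.

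EPHB6, which has lost kinase activity, was low. Treated LC-2/ad libraries had 1.97, 1.33 and 2.56 TPM and parent LC-2/ad libraries 2.46, 2.18 and 1.00 TPM, which overlapped. Its log2 fold change was 0.06 with a wide 95% interval of -0.54 to 0.65 (adjusted p = 0.870), and its sign turned under median-of-ratios scaling. In TPC-1 it did not reach 1 TPM, at 0 to 0.0985 TPM in treated libraries and 0.0628 to 0.211 TPM in parent libraries.

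EFNA1, a ligand of EPHA2, was the 1 member that rose in both lines. It was first described as a gene induced by tumour necrosis factor in endothelial cells. EFNA1 lies on the plus strand of chromosome 1 (GRCh38, 155127460 to 155134857). In TPC-1 it stood at 27.7, 28.6 and 27.0 TPM in treated libraries, against 18.0, 11.4 and 15.3 TPM in parent libraries. Its LC-2/ad level was 111, 116 and 112 TPM in treated libraries, against 51.1, 50.8 and 49.2 TPM in parent libraries. Every treated library lay above every parent library of its line, and the TPC-1 parent libraries were spread most. The log2 fold change was 0.88 ± 0.14 in TPC-1, a 1.84-fold rise (adjusted p = 0.00911), and 1.15 ± 0.04 in LC-2/ad, a 2.22-fold rise (adjusted p = 7.5e-07). In LC-2/ad the call held under all 15 alternatives, with a log2 fold change of 1.06 to 1.23. In TPC-1 it was lost without the first treated library (adjusted p = 0.0519) and without the filter on low genes (adjusted p = 0.0702). The changes differed between the lines by -0.28 (95% interval -0.62 to 0.07, adjusted p = 0.194). This difference was -0.44 and was called without the second TPC-1 parent library, the lowest of its group (adjusted p = 0.0033), and it was -0.36 and called with a pseudocount of 5 (adjusted p = 0.0404). These were the 2 of 21 alternatives that called it. The 250 bases before the RefSeq start of EFNA1 held 5 GC boxes and no match to the other 6 motifs. That start lies inside the gene as GENCODE 29 draws it, and all 250 of these bases (chr1:155127626-155127875) are exonic there.

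Of the B-type ligands, EFNB1 rose in TPC-1 and its change differed between the lines. Both B-type ephrins carry a cytoplasmic tail that binds PDZ proteins and can be phosphorylated by SRC family kinases. EFNB1 stood at 19.7, 17.7 and 18.0 TPM in treated TPC-1 libraries, against 11.4, 9.28 and 10.1 TPM in parent TPC-1 libraries. Its LC-2/ad level was 3.56, 3.31 and 3.69 TPM in treated libraries and 3.53, 3.28 and 2.96 TPM in parent libraries. The TPC-1 groups lay far apart, and the LC-2/ad groups overlapped. EFNB1 had a log2 fold change of 0.79 ± 0.10 in TPC-1, a 1.73-fold rise called under all 15 alternatives (adjusted p = 0.0034), and 0.09 in LC-2/ad (95% interval -0.18 to 0.36, adjusted p = 0.545). The difference of 0.70 ± 0.14 was called (adjusted p = 0.00208) and held under all 20 alternatives.

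EFNB2, the ligand of EPHB4, stood at 18.3, 16.4 and 15.7 TPM in treated TPC-1 libraries, against 13.1, 11.96 and 13.3 TPM in parent TPC-1 libraries. In LC-2/ad it stood at 20.7, 21.2 and 21.1 TPM in treated libraries and at 21.5, 23.8 and 21.5 TPM in parent libraries. The treated libraries lay above the parent ones in TPC-1 and just below them in LC-2/ad. The TPC-1 log2 fold change of 0.37 ± 0.09 missed the threshold (adjusted p = 0.0633) and passed it when both lines shared 1 estimate of the spread (adjusted p = 0.00986). The LC-2/ad change was -0.08 (95% interval -0.23 to 0.07, adjusted p = 0.323), and under median-of-ratios scaling it was -0.17 (adjusted p = 0.0458). The difference between the lines was 0.44 ± 0.11 (adjusted p = 0.00632) and was called under all 21 alternatives.

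The bases upstream of the B-type ephrins are shown because the changes of both were higher in TPC-1 than in LC-2/ad. They are from RefSeq (GRCh38.p14), chrX:68828771-68828996 on the plus strand for EFNB1 and chr13:106535663-106535912 on the minus strand for EFNB2, beginning at base 250 before the start, with motif matches in capitals.
EFNB1: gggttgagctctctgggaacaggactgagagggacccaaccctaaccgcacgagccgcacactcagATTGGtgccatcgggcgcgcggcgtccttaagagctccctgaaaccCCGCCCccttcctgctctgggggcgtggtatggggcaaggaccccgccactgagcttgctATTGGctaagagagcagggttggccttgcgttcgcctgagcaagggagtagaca
EFNB2: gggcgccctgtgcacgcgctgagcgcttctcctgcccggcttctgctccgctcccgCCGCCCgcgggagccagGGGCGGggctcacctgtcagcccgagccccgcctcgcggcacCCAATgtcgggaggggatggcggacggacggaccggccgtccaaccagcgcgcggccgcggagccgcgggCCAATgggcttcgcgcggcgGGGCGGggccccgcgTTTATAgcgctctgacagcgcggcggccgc
EFNB1 held CCAAT boxes at bases 184 to 180 and 78 to 74 before the start, both read on the other strand as ATTGG, and a GC box at bases 138 to 133. EFNB2 held CCAAT boxes at bases 135 to 131 and 65 to 61, GC boxes at bases 194 to 189, 177 to 172 and 45 to 40, and a TATA box at bases 30 to 25. A CCAAT box occurred in 32% and a TATA box in 10.8% of all windows.

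**Figure D2:**
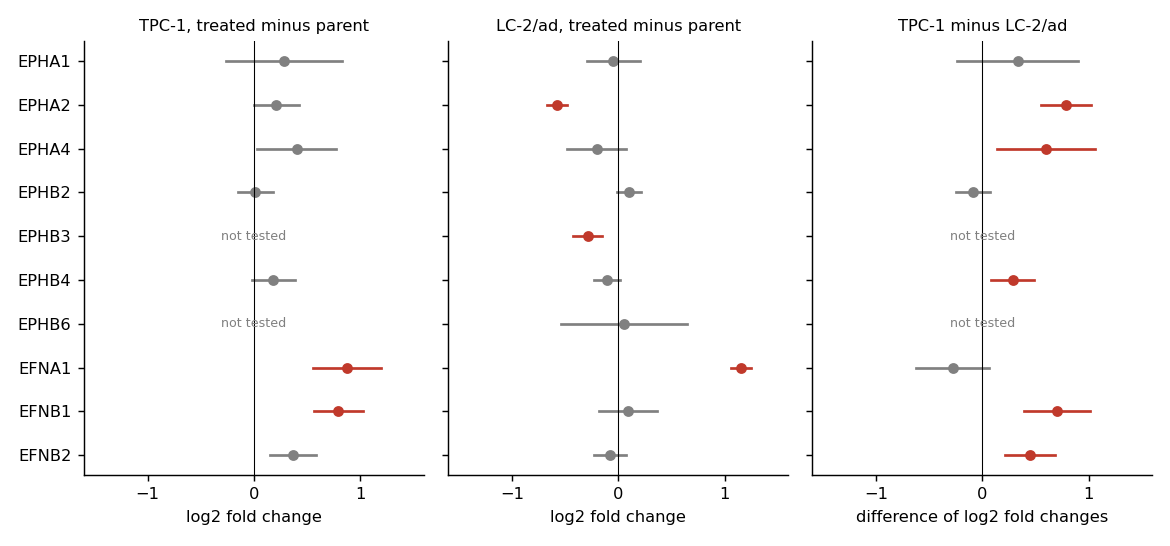
Log2 fold change of TPM + 1, treated minus parent, of each member in TPC-1 (left) and LC-2/ad (middle), and the difference TPC-1 minus LC-2/ad (right). Points are limma estimates and lines their 95% intervals, red where the adjusted p was under 0.05. EPHA2 lies left of 0 and is called in LC-2/ad, is not called in TPC-1, and has a called difference of 0.78. EFNA1 is right of 0 in both lines, and EFNB1 is called in TPC-1 and in the difference.

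**Figure D3:**
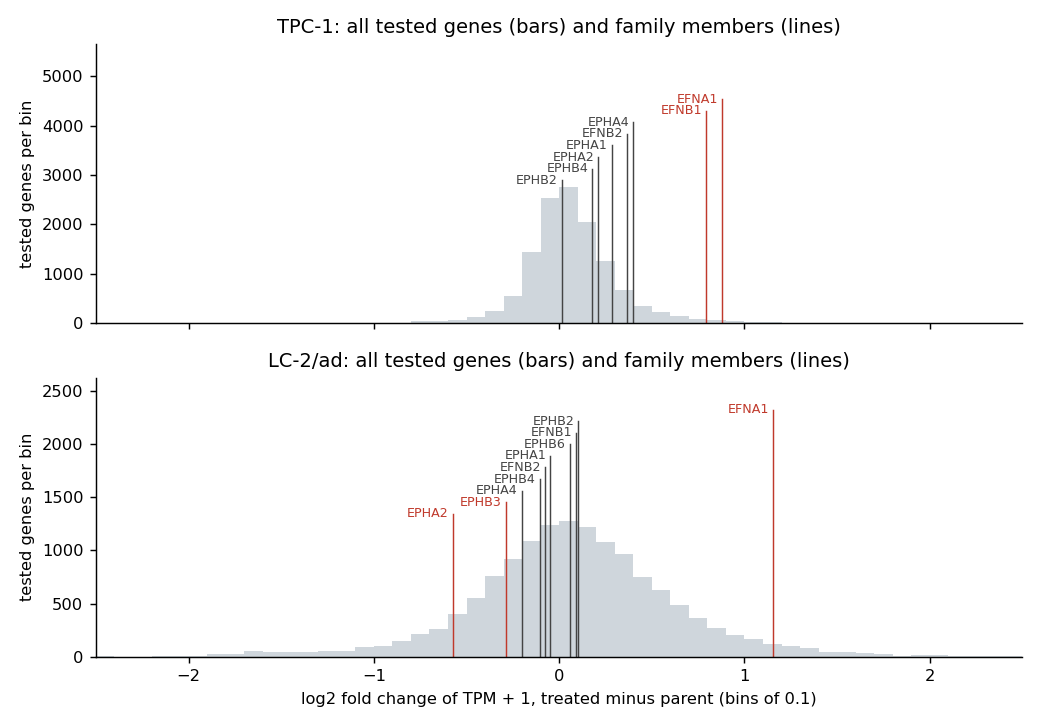
Distribution of the log2 fold changes of all tested genes (grey bars, number of genes per bin of 0.1) in TPC-1 (top) and LC-2/ad (bottom), with vertical lines at the members, red where called. In TPC-1, where 4.96% of genes were called, EFNA1 at 0.88 and EFNB1 at 0.79 lie in the right tail, and in LC-2/ad, where 55.0% were called, EFNA1 at 1.15 does.

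Summed over the family, ligands took a larger place beside receptors in treated cells. The ratio of ephrin to receptor sums was 0.620 to 0.700 in treated and 0.562 to 0.610 in parent TPC-1 libraries. In LC-2/ad it was 0.790 to 0.834 in treated and 0.456 to 0.472 in parent libraries. The ephrin sum rose mostly through EFNA1 in LC-2/ad. In TPC-1 EFNA1 averaged 27.7 TPM in treated and 14.9 TPM in parent cells. The B-type ephrin sum averaged 42.1 TPM in treated and 30.6 TPM in parent TPC-1 cells. The 8 ephrin genes of the genome summed to 95.4 ± 4.06 TPM in treated and 74.8 ± 4.011 TPM in parent TPC-1 cells, and to 192 ± 1.32 TPM in treated and 127 ± 2.56 TPM in parent LC-2/ad cells (SD, n = 3 each). The 14 receptor genes summed to 145 ± 4.45 TPM in treated and 127 ± 9.24 TPM in parent TPC-1 cells, and to 235 ± 7.64 TPM in treated and 276 ± 10.8 TPM in parent LC-2/ad cells. The receptor sums of treated and parent libraries did not overlap in either line, lying above the parent sums in TPC-1 and below them in LC-2/ad. EFNA1 made up 29.1% ± 1.57 of the ephrin sum in treated and 19.8% ± 3.62 in parent TPC-1 cells, and 59.1% ± 1.82 in treated and 39.6% ± 0.00310 in parent LC-2/ad cells. EPHA2 made up 47.2% ± 1.93 of the receptor sum in treated and 46.5% ± 2.31 in parent TPC-1 cells, and 29.9% ± 0.450 in treated and 38.0% ± 0.496 in parent LC-2/ad cells. These sums, ratios and shares are descriptions and were not tested.

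The ratio of EFNA1 to EPHA2, both in TPM, was 0.407, 0.391 and 0.422 in treated and 0.274, 0.222 and 0.252 in parent TPC-1 libraries. In LC-2/ad it was 1.62, 1.68 and 1.56 in treated and 0.478, 0.480 and 0.485 in parent libraries. In LC-2/ad the ligand transcript thus exceeded the receptor transcript in every treated library and in 0 parent libraries, while in TPC-1 it stayed below in all 6. The ratio of EFNB2 to EPHB4 overlapped between the groups of each line. It averaged 0.980 ± 0.150 in treated and 0.849 ± 0.0749 in parent TPC-1 cells, and 0.423 ± 0.0270 in treated and 0.416 ± 0.0225 in parent LC-2/ad cells.

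**Figure D4:**
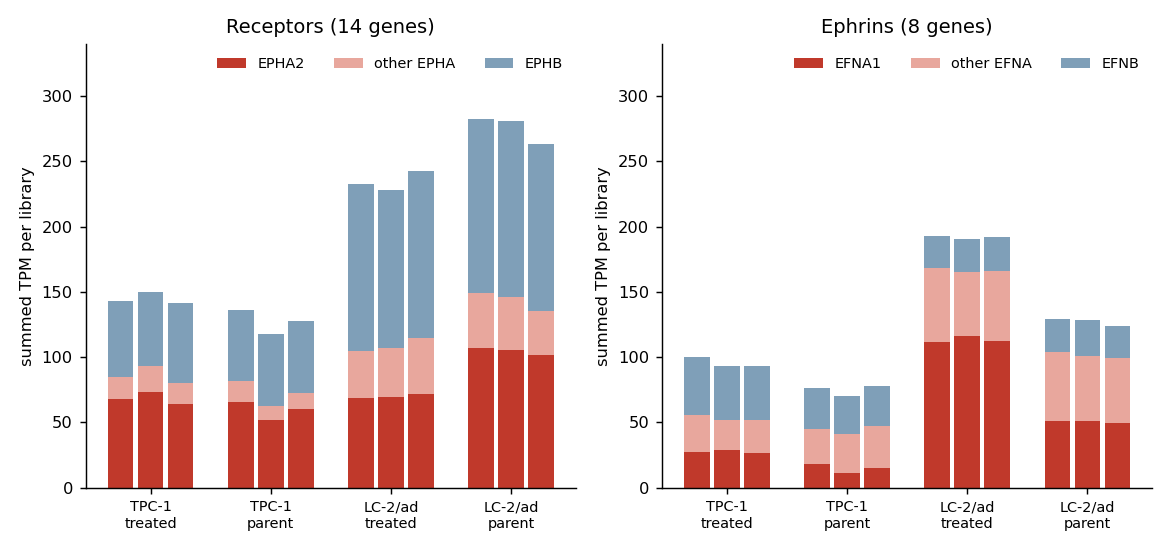
Summed TPM of the 14 receptor genes (left) and the 8 ephrin genes (right) in each library, 3 bars per group, stacked by EPHA2, other EPHA and EPHB, or by EFNA1, other EFNA and EFNB. In LC-2/ad EFNA1 makes up 59.1% of the ephrin sum after treatment and 39.6% in parent cells, and the receptor sum is 235 TPM after treatment and 276 TPM in parent cells.

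The order of the members by mean TPM differed between treated and parent cells. In treated TPC-1 cells it ran EPHA2, EFNA1, EPHB2, EFNB1, EPHB4, EFNB2, EPHA4, EPHA1, EPHB6 and EPHB3, with the library ranges of EFNB1 and EPHB4, of EPHB4 and EFNB2 and of EPHB6 and EPHB3 overlapping. In parent TPC-1 cells it ran EPHA2, EPHB2, EPHB4, EFNA1, EFNB2, EFNB1, EPHA4, EPHA1, EPHB3 and EPHB6, and the neighbours EPHB4 and EFNA1, EFNA1 and EFNB2, EFNB1 and EPHA4, and EPHB3 and EPHB6 overlapped. In treated LC-2/ad cells EFNA1 stood first, followed by EPHA2, EPHB4, EPHB2, EPHA1, EPHB3, EFNB2, EPHA4, EFNB1 and EPHB6, with overlap between EPHB4 and EPHB2. In parent LC-2/ad cells the order was EPHA2, EPHB4, EFNA1, EPHB2, EPHA1, EPHB3, EFNB2, EPHA4, EFNB1 and EPHB6, with overlap between EPHA1 and EPHB3. EFNA1 thus stood at rank 2 in treated and rank 4 in parent TPC-1 cells, and at rank 1 in treated and rank 3 in parent LC-2/ad cells.

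The other 12 genes of the family added 1 call. In TPC-1 7 of them were tested and 0 were called by limma, with an adjusted p of 0.089 as the lowest. EPHA5 passed the filter on low genes only through its treated libraries, so its p, given below, is no support for a difference. In LC-2/ad 6 were tested, and EFNA4, another A-type ephrin, was called as higher. EFNA4 stood at 13.4, 12.6 and 12.8 TPM in treated and 11.9, 13.1 and 14.04 TPM in parent TPC-1 libraries, which overlapped, and at 27.6, 24.7 and 24.9 TPM in treated and 19.3, 19.0 and 20.9 TPM in parent LC-2/ad libraries, which did not. Its log2 fold change was 0.00 in TPC-1 (95% interval -0.22 to 0.21, adjusted p = 0.991) and 0.37 ± 0.07 in LC-2/ad (adjusted p = 0.00305). The difference of -0.37 was called (adjusted p = 0.0199) under 18 of 21 alternatives and not without LC-2/ad parent library 2 (adjusted p = 0.05004), LC-2/ad treated library 1 (0.0555) or TPC-1 parent library 3 (0.0522). EFNA4, EFNA3 and EFNA1 lie in this order on the plus strand of chromosome 1, from 155063731 to 155134857. A readthrough gene, EFNA4-EFNA3, overlaps EFNA4 and EFNA3 on the same strand, and how reads were split between these genes was not assessed. The readthrough gene averaged under 1 TPM in all groups. EFNA3, between the ephrins that rose in LC-2/ad, averaged 7.43 ± 0.431 TPM in treated and 7.86 ± 0.324 TPM in parent LC-2/ad cells, with a log2 fold change of -0.07 (95% interval -0.27 to 0.13, adjusted p = 0.504).

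Of the rest, EFNA5 stood at 10.3, 7.61 and 7.28 TPM in treated and 10.7, 12.3 and 13.9 TPM in parent TPC-1 libraries, without overlap. Its log2 fold change there was -0.51 (95% interval -0.84 to -0.17), and it was called only when both lines shared 1 estimate of the spread (adjusted p = 0.0413). EPHB1 averaged 19.2 ± 1.93 TPM in treated and 17.3 ± 0.968 TPM in parent TPC-1 cells (adjusted p = 0.454), and 4.62 ± 0.875 TPM in treated and 5.56 ± 0.169 TPM in parent LC-2/ad cells (adjusted p = 0.162). Its treated and parent libraries overlapped in both lines. EFNB3 averaged 6.81 ± 0.776 TPM in treated and 7.51 ± 0.516 TPM in parent TPC-1 cells (adjusted p = 0.594), and was below 1 TPM in LC-2/ad. EPHA10, a receptor without kinase activity, averaged 4.40 ± 0.788 TPM in treated and 3.30 ± 0.356 TPM in parent LC-2/ad cells (adjusted p = 0.0958). EFNA2 averaged 1.37 TPM in both LC-2/ad groups, EPHA5 averaged 1.45 ± 0.270 TPM in treated and 0.813 ± 0.134 TPM in parent TPC-1 cells (adjusted p = 0.226), and EPHA3, EPHA6 and EPHA8 averaged at most 1.09 TPM in any group.

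Endothelial markers were examined because EPHB4, EFNB2 and EFNA1 are also expressed in vessels. The 5 markers summed to 0.395 to 0.727 TPM in treated and 0.0985 to 0.349 TPM in parent TPC-1 libraries, and to 14.7 to 17.9 TPM in treated and 14.6 to 16.4 TPM in parent LC-2/ad libraries. In LC-2/ad 2 of 5, KDR and CDH5, averaged at least 1 TPM, and in TPC-1 0 of 5 did. The endothelial sums overlapped between the groups in LC-2/ad and did not in TPC-1. Within LC-2/ad the markers moved apart: CDH5 stood at 3.15, 4.03 and 3.72 TPM in treated and 1.96, 1.98 and 2.27 TPM in parent libraries, and PECAM1 at 0.227, 0.178 and 0.327 TPM in treated and 1.01, 0.571 and 0.630 TPM in parent libraries, both without overlap. The fibroblast markers, of which COL1A1 was the most abundant, summed to 26.5 to 36.3 TPM in treated and 31.4 to 33.9 TPM in parent TPC-1 libraries, and to 35.5 to 40.9 TPM in treated and 28.9 to 34.0 TPM in parent LC-2/ad libraries. The fibroblast sums overlapped in TPC-1 and did not in LC-2/ad. In LC-2/ad COL1A1 itself overlapped, at 32.2, 37.8 and 38.7 TPM in treated and 33.2, 28.2 and 32.6 TPM in parent libraries. LUM did not, averaging 2.12 TPM in treated and 0.495 TPM in parent cells, and DCN, COL1A2 and PDGFRB averaged under 1 TPM. The epithelial markers summed to 2459 ± 13.2 TPM in treated and 2991 ± 160.1 TPM in parent TPC-1 cells, and to 3972 ± 37.6 TPM in treated and 5505 ± 90.0 TPM in parent LC-2/ad cells. The thyroid markers summed to 281 ± 14.9 TPM in treated and 200.02 ± 39.6 TPM in parent TPC-1 cells, and to 59.7 ± 3.60 TPM in treated and 27.4 ± 0.662 TPM in parent LC-2/ad cells. The lung markers summed to 176 ± 1.63 TPM in treated and 143 ± 7.08 TPM in parent LC-2/ad cells and to under 2 TPM in both TPC-1 groups. Epithelial and thyroid sums did not overlap between treated and parent libraries in either line, nor lung sums in LC-2/ad. The LC-2/ad lung sum was mostly NKX2-1, at 140 TPM in treated and 110 TPM in parent cells. NAPSA overlapped there, and SFTPB, under 1 TPM, was lower in all treated libraries than in all parent ones. In TPC-1 the thyroid sum was mostly PAX8, and FOXE1 overlapped between the groups. Keratins made up most of the epithelial sums, with KRT8 and KRT18 averaging 1521 and 932 TPM in treated TPC-1 cells. In LC-2/ad CDH1 alone of the epithelial markers averaged higher after treatment, at 190 TPM against 169 TPM in parent cells. The part of these markers in the results was not tested. The mitochondrial share also moved with treatment in LC-2/ad. With these genes removed, the log2 fold changes there were 1.23 for EFNA1, -0.50 for EPHA2 and -0.21 for EPHB3, and all of these were called.

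Signalling partners of the family were taken from a list of 44 genes, among them the protease that sheds ephrins, phosphatases, adaptors, exchange factors, activating proteins of small GTPases, cytoplasmic kinases, ubiquitin ligases and proteins that bind B-type ephrins. In TPC-1 39 were tested, and 2 rose and 0 fell, where 4.96% of all tested genes were called. In LC-2/ad 41 were tested, and 7 rose and 9 fell, where 55.0% of all tested genes were called. The difference between the lines was called for 14 of 39, of which 9 were higher and 5 lower in TPC-1, where 36.6% of all tested genes were called. In TPC-1 and in the difference these counts are close to the share over all genes and show nothing particular to the partners. In LC-2/ad 25 of the 41 were not called, so the called share was below that over all genes, which was not tested.

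INPPL1 encodes SHIP2, a lipid phosphatase that binds EPHA2 through a SAM domain, and it was the 1 partner that rose in both lines. It stood at 104.6, 124.6 and 111 TPM in treated and 89.9, 58.3 and 69.5 TPM in parent TPC-1 libraries, and at 209.9, 212 and 224 TPM in treated and 138, 137 and 145 TPM in parent LC-2/ad libraries. All treated libraries lay above all parent ones of their line. The log2 fold change was 0.65 ± 0.14 in TPC-1 (adjusted p = 0.0330) and 0.61 ± 0.04 in LC-2/ad (adjusted p = 1.3e-05), with a difference of 0.04 (95% interval -0.32 to 0.40). In TPC-1 the call held under 7 of 15 alternatives and in 1 of 6 fits without 1 library, that without the first parent library. Without any other library the adjusted p was 0.0683 to 0.117. FYN, a SRC family kinase that acts behind A-type receptors, stood at 13.6, 11.6 and 14.6 TPM in treated and 7.85, 8.88 and 7.44 TPM in parent TPC-1 libraries, without overlap. It rose there by 0.65 ± 0.12 on the log2 scale (adjusted p = 0.0153), and the call was lost without parent library 3, treated library 1 or treated library 3 (adjusted p = 0.0755, 0.0716 and 0.0515). The FYN change did not differ detectably between the lines, with a difference of 0.27 (95% interval -0.18 to 0.71, adjusted p = 0.338).

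In LC-2/ad, TIAM1 had the largest fall of the named partners. It encodes a RAC exchange factor that binds EPHA2 and B-type ephrins, and stood at 5.42, 5.93 and 5.97 TPM in treated libraries, against 14.7, 16.6 and 14.5 TPM in parent libraries. The treated libraries lay far below the parent ones. Its log2 fold change was -1.26 ± 0.09 (adjusted p = 1.5e-05). RGS3, which links B-type ephrins to G protein signalling, averaged 22.4 ± 0.927 TPM in treated and 37.3 ± 0.280 TPM in parent LC-2/ad cells, a log2 fold change of -0.71 ± 0.05 (adjusted p = 2.5e-05). RASA1, the RAS GTPase-activating protein that docks on EPHB2, had a log2 fold change of -0.56 ± 0.06 (adjusted p = 9.5e-05), and the phosphatase PTPN11 one of -0.41 ± 0.06 (adjusted p = 0.000552). For RGS3, RASA1 and PTPN11 too, every treated library lay below every parent library. CBLB, a ubiquitin ligase of the family that marks activated receptors for degradation, rose by 0.66 ± 0.09 on the log2 scale (adjusted p = 0.00064). The exchange factor ITSN1, a partner of EPHB2, rose by 0.42 ± 0.09 (adjusted p = 0.00486), and the kinase SRC by 0.30 ± 0.06 (adjusted p = 0.00465). Relatives of CBLB and SRC on the list were called as lower in LC-2/ad. The log2 fold change was -0.26 for the ligase CBL (limma, adjusted p = 0.0182) and -0.37 for the kinase YES1 (adjusted p = 0.00422). FYN was not called there (0.39, adjusted p = 0.0753). The LC-2/ad calls of TIAM1, RGS3, RASA1, PTPN11, CBLB, ITSN1 and SRC held under all 15 alternatives, and none of these 7 was called in TPC-1. Among the 7, the difference between the lines was called for TIAM1, RGS3, RASA1, PTPN11 and SRC. It was not called for CBLB (-0.73, adjusted p = 0.0518) or ITSN1 (-0.19, adjusted p = 0.238).

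**Figure D5:**
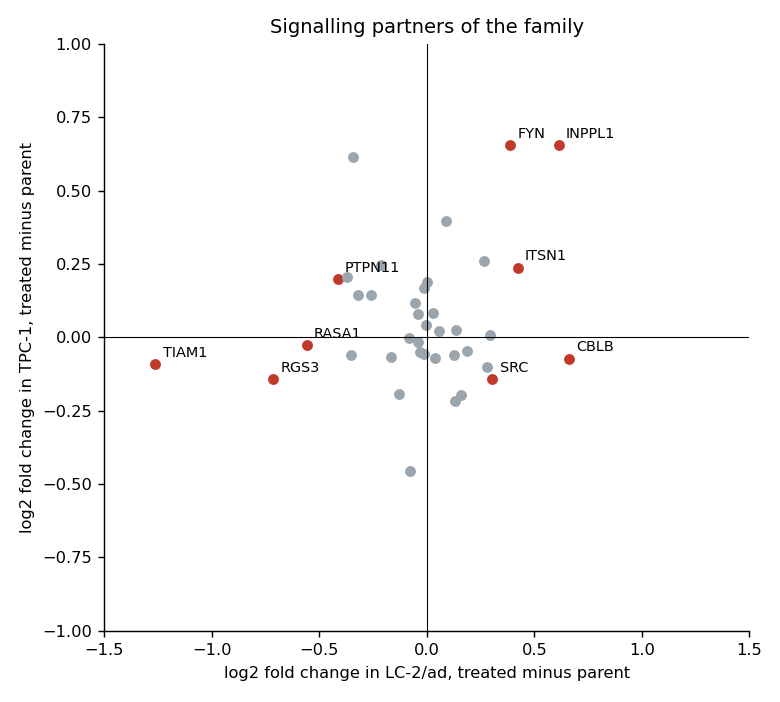
Log2 fold change, treated minus parent, of the signalling partners tested in both lines, in LC-2/ad on the horizontal and in TPC-1 on the vertical axis, 1 point per gene. The genes named in the text are red. INPPL1 lies at 0.61 and 0.65, and TIAM1 is far left at -1.26 with a TPC-1 value of -0.09.

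The genes whose pair of fold changes lay closest to that of EPHA2 were SLC19A1, PUM3 and KCTD9, out of 8802 protein-coding genes outside the family with a mean of at least 5 TPM in each line. Likeness was the Euclidean distance between the log2 fold changes in both lines, over 12 libraries. SLC19A1, the reduced folate carrier, had 0.21 in TPC-1 and -0.58 in LC-2/ad. PUM3 had 0.21 and KCTD9 had 0.20 in TPC-1, and in LC-2/ad they had -0.58 and -0.59. With this many candidates and 2 coordinates a close match is easily found, and the values are a description.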

How the data were processed

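For each line the authors deposited a table of TPM, with a row per gene and a column per library that sums to 1000000. Salmon, bcl2fastq 2.20.0 and the build GRCh38 appear, with no role, in the submitters' processing notes. Annotation and filters are not given in the sources used here. TPM keep no depth, so no counting intervals are given and precision is the spread between libraries.

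Groups came from the sample labels, and no deposited column was left out. For each line limma 3.58.1 in R 4.3.3 (lmFit, eBayes with a variance trend) was fitted to log2(TPM + 1) of the genes whose TPM averaged 1 or more in its 6 libraries. P-values are two-sided and adjusted by Benjamini-Hochberg over all tested genes, with a threshold of 0.05. The difference between the lines was the interaction in a fit of 12 libraries, for genes with a mean of at least 1 in each line, and it assumes a like spread in both. The fits were tested on simulated data.

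Named were all members, the other family genes, in each line up to 4 called partners per direction with the largest change, and the 3 nearest profiles. CBL and YES1 were added as relatives of CBLB and SRC. The members and lists were chosen with earlier results of these data known. Gene positions are from GENCODE 29, and 34620 of the 37247 identifiers were in it. Promoter windows are from RefSeq (GRCh38.p14). Alternatives were other pseudocounts (0.1 and 5), other filters (none, or a mean TPM of 5), mitochondrial genes taken out, median-of-ratios scaling, a replicate block, eBayes without the trend, 1 fit for both lines, each library left out, and a spread weight per line, added after the data were seen. Tables and figures were made with matplotlib 3.10.9, numpy 2.4.6 and pandas 2.3.3 in Python 3.11.15.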

Additional observations from a re-analysis of the deposited data

Results flagged for a closer look

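For these genes the change under selpercatinib differed between the lines by the test of the difference, TPC-1 minus LC-2/ad, on the log2 scale. Among the members this was 0.78 for EPHA2, 0.70 for EFNB1, 0.60 for EPHA4, 0.44 for EFNB2 and 0.29 for EPHB4. The EPHA4 and EPHB4 differences were called under 8 of 20 and 11 of 21 alternatives, and those of EPHA2, EFNB1 and EFNB2 under all of theirs. Of the other family genes, EFNA4 differed by -0.37. Of the signalling partners named for the largest changes, TIAM1 differed by 1.17, PTPN11 by 0.61, RGS3 by 0.57, RASA1 by 0.53 and SRC by -0.45. Each was called under every alternative tried for it (20 for TIAM1 and 21 for each of the others).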

How the results depend on the processing

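Of the counts of called genes, members and partners, 102 values under alternatives lay within 1.5 times the reported count and 30 did not. Of the single-gene values, 1072 kept direction and side of the threshold, 21 gained a call, 40 lost one and 26 changed sign. In TPC-1, 636 genes were called, and 272 without the filter, 356 without the variance trend, 1391 in 1 fit for both lines and 292 to 800 with 1 library left out (339 and 292 without parent library 2 or 3, 300 and 336 without treated library 1 or 2). The 2 members called in TPC-1 became 1 without the filter and 1 to 3 with a library left out. The 2 partners became 0 without the filter, 5 under median-of-ratios scaling, 1 without the trend, 5 in 1 fit for both lines and 0 to 4 with a library left out. In LC-2/ad the 3 members became 5 under median-of-ratios scaling. The 5 members with a called line difference became 3 at a mean TPM of at least 5, with mitochondrial genes removed or with the replicate block, and 3 to 5 with a library left out. At a mean of at least 5 TPM EPHA4 and EFNB1 were not tested. The cause of the other shifts was not tested.

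Scaling moved the split of calls. In TPC-1 it was 481 higher and 155 lower, and 420 and 254 under median-of-ratios scaling. In LC-2/ad it was 4319 and 3451, against 3441 and 4318 under median-of-ratios scaling and 5216 and 2833 without mitochondrial genes. For the line difference it was 2660 and 1733, against 2066 and 2302 without mitochondrial genes. Signs turned for EPHA1 in LC-2/ad (0.028) and the INPPL1 line difference (-0.047) without mitochondrial genes, and under median-of-ratios scaling for EPHB2 (-0.042) and EFNA3 (-0.010) in TPC-1 and EPHB6 in LC-2/ad (-0.0041). None of these was called in either direction. With a library left out, log2 fold changes in TPC-1 ranged from -0.011 to 0.031 for EPHB2, -0.019 to 0.22 for EPHA6, -0.038 to 0.17 for EFNA3, -0.061 to 0.049 for EFNA4, -0.26 to 0.14 for CBLB, -0.090 to 0.028 for RASA1 and -0.26 to 0.012 for TIAM1. In LC-2/ad they ranged from -0.15 to 0.031 for EPHA1, -0.19 to 0.22 for EPHB6 and -0.24 to 0.29 for EFNA2, and the INPPL1 line difference from -0.10 to 0.21.

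Libraries with the same replicate number did not deviate together (r of 0.05, -0.03 and 0.04 in TPC-1 and -0.04, -0.01 and -0.05 in LC-2/ad). Group means of 3 libraries were removed first, so these values cannot settle whether the numbers pair the libraries. With the replicate block 542 genes were called in TPC-1, 7357 in LC-2/ad and 4227 in the line difference. The EPHA4 and EPHB4 line differences (adjusted p = 0.0822 and 0.0667) and INPPL1 in TPC-1 (adjusted p = 0.0540) were not called with it. Depth is unknown and limits the low genes in a way these values do not show.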

Other observations

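EPHA7, an A-type receptor outside the studied members, averaged under 1 TPM over the LC-2/ad libraries and was left out of the test there. It stood at 1.51, 0.825 and 1.27 TPM in treated libraries, against 0.192, 0.178 and 0.179 TPM in parent libraries, and all treated libraries lay above all parent ones. Without the filter on low genes its log2 fold change was 0.88 ± 0.13 (limma, adjusted p = 0.00351), a setting picked out after its values were seen. In TPC-1 EPHA7 was listed at 0 in all 6 libraries.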
